A study of Mus musculus with 2 samples.

Results

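The cells described here are the 60 yolk sac cells with the highest summed level of Mpo and Prtn3, called the Mpo and Prtn3 cells below. They were taken by rank from 775 yolk sac cells, so they make up 7.74% of them, and 2653 cells were kept in both libraries of the study together. A cell is a droplet barcode with at least 6537 unique molecular identifiers (UMIs, each a captured transcript) and at most 10% of them from mitochondrial genes. Levels are UMIs scaled to 1e+06 UMIs of the same cell or set of cells (CPM). The cells were chosen by their measured Mpo and Prtn3 levels, so every difference between these cells and other yolk sac cells is a description and carries no test.

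The study profiled mouse cells of the C57BL/6 strain by droplet single-cell RNA sequencing, with 1 library per source, and both cell suspensions were frozen and thawed before capture. The yolk sac library mixed extraembryonic tissue of E9.5 and E10.5 embryos in equal embryo numbers, and about 70% of the cells with the red cell antigen Ter119 were sorted away together with dead cells. The other library held embryoid body cells, derived from embryonic stem cells, at day 4 of a differentiation favouring hemangiogenic mesoderm. Yolk sacs of both ages were pooled before capture, so age and embryo cannot be told apart in any value below.

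Granulocyte and monocyte precursors make their first wave of granules early in maturation and load them with myeloperoxidase and with a family of serine proteases. The proteoglycan serglycin packs these proteins, and transcription factors of the C/EBP family and PU.1 drive the genes that encode them. In the mouse yolk sac such precursors arise from erythro-myeloid progenitors, which bud from endothelium, express Runx1 and Kit, and leave for the fetal liver.

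Mpo encodes myeloperoxidase, which makes hypochlorous acid, and Prtn3 encodes proteinase 3, a serine protease. Their close partners are Elane (neutrophil elastase), which lies 3072 bases beyond the annotated end of Prtn3 on the same strand, and Ctsg (cathepsin G), another protease of these granules. In GENCODE M21 on GRCm38, Mpo (ENSMUSG00000009350) spans chr11:87793581-87804413 and Prtn3 (ENSMUSG00000057729) spans chr10:79874476-79883174, both on the plus strand. The sequences just upstream of these 4 genes are shown because the genes share a granule but not a level in these cells. Each window of 250 bases before the RefSeq start (GRCm38.p6) was searched on both strands for GAGGAA (a core of PU.1 sites), TTNNGNAA (C/EBP), TGTGGT (RUNX) and AACNG (MYB), with N for any base. Only the stretch of each window that lies outside the annotated exons of the gene is printed, 5′ to 3′ on the gene's strand, with the matches in capitals. The Prtn3 window lies inside the annotated span of the gene, since a longer transcript model starts upstream, and its last 2 capitals begin a MYB match that runs past the printed end.
Mpo, chr11:87793534-87793580: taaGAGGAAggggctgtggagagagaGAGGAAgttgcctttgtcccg
Prtn3, chr10:79879417-79879613: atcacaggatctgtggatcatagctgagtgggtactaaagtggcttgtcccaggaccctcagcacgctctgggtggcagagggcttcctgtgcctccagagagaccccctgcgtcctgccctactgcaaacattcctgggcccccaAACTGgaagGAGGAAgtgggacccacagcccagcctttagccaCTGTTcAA
Elane, chr10:79886062-79886246: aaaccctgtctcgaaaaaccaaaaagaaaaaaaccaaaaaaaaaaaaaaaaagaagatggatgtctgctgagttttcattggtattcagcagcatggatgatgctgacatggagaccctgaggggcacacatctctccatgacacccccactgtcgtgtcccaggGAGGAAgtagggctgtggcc
Ctsg, chr14:56102575-56102824, minus strand: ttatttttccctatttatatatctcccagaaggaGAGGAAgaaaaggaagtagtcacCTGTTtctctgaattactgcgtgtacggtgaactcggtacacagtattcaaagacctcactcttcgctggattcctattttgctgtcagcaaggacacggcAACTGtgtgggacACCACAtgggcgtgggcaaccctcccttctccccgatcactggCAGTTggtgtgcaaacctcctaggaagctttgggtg

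GAGGAA occurred in all 4 windows, and 2 times in that of Mpo, while 23.3% of 32851 RefSeq promoter windows of this length hold it. No window held the C/EBP letters, which 36.8% of all windows hold. The RUNX letters (14.0% of all windows) were found only upstream of Ctsg, and the MYB letters (74.2% of all windows) in all 4, for Mpo and Elane in the stretch not printed. Matches of different motifs did not overlap. A match describes letters, and its absence says nothing of the factor.

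Both ranking genes were spread over most of the chosen cells, with Prtn3 the stronger. Prtn3 ran from 97.2 CPM through a median of 1092 CPM to 2507 CPM per cell, and all 60 cells had at least 1 UMI of it. Mpo ran from 0 through a median of 344 CPM to 5275 CPM and was missing in 2 cells. Summed over cells, Prtn3 stood at 1241 CPM (95% Poisson interval 1196 to 1286, for counting error only, as in all intervals below) and Mpo at 561 CPM (531 to 593). The cells held 74.4% of the Prtn3 UMIs and 70.3% of the Mpo UMIs of all yolk sac cells.

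**Figure D1:**
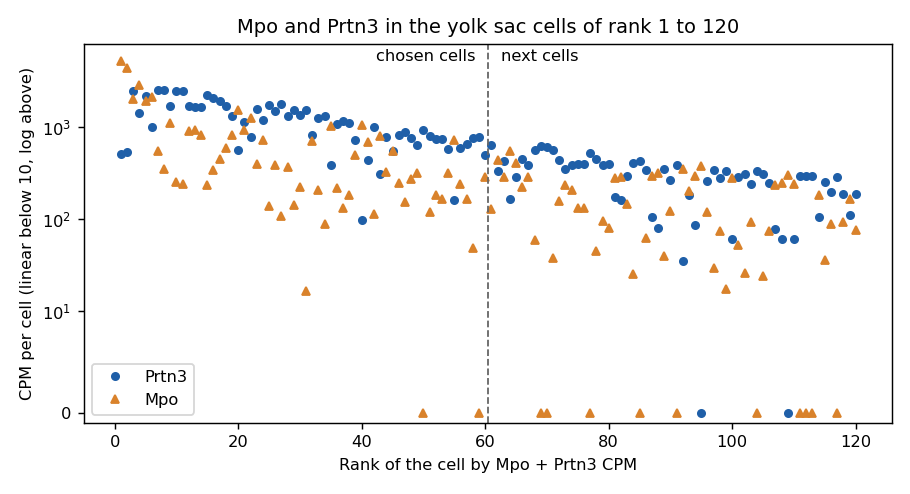
Level per cell (CPM, linear below 10 and log above) of Prtn3 (circles) and Mpo (triangles) against the rank of the cell by their sum; the dashed line separates ranks 1 to 60 from ranks 61 to 120. The points fall without a step at the line, and Prtn3 lies above Mpo in most cells but not in the first.

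The limit at rank 60 fell on a slope and not at a gap. The summed level was 785 CPM at rank 59 and 781 CPM at rank 60, just inside, and 771 CPM at rank 61 and 766 CPM at rank 62, just outside. It was 5782 CPM at rank 1, 1554 CPM at rank 30 and 261 CPM at rank 120, and 514 of the 775 cells (66.3%) had no UMI of either gene.

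The label of these cells as myeloid progenitors was checked against markers. Mpo and Prtn3 were present by the rule and check nothing. Srgn, which the rule did not use, was seen in 57 of the 60 cells, and 47 of the 60 cells had at least 2 UMIs of Runx1 and 2 of Cd34, the rule used for the progenitors they are compared with. Srgn was present in those progenitors too, at 89.4 CPM against 189 CPM, so its presence alone does not set the 60 cells apart. Runx1 and Cd34 were seen together in 55 of the 60. Of 12 neutrophil markers, 8 (Ctsg, Camp, Ngp, Lcn2, S100a8, S100a9, Fcnb and Ly6g) had no UMI in any of the 60 cells. The other 4 were present, among them Csf3r in 39 cells and Cxcr2 in 22, and the 12 together stood at 58.3 CPM in the Mpo and Prtn3 cells and 31.1 CPM in the progenitors. The name used here is that of the ranking genes, and no maturation stage is given.

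The comparison groups came from the same library. The 102 Runx1 and Cd34 progenitors are all other cells with at least 2 UMIs of each of these genes, and 45 of them stand at ranks 61 to 120. The 44 C1q cells, outside the 60, have at least 10 UMIs of the macrophage complement genes C1qa, C1qb and C1qc together, and 12 of them are also among the 102. The median depth was 41973 UMIs per cell in the Mpo and Prtn3 cells, 45307 in the progenitors, 35223 in the C1q cells and 28023 in all 715 other yolk sac cells. Median genes per cell were 5345.5 in the Mpo and Prtn3 cells and 5672 in the progenitors. No barcode of the 60 was a cell in the other library, where 2 yolk sac barcodes recur. Droplets with almost no RNA (mean 54.2 UMIs) carried embryonic globin Hbb-y at 14890 CPM, against 161 CPM in the Mpo and Prtn3 cells. Were all Hbb-y in the cells free RNA, free RNA would make up 1.08% of their UMIs and would give 2.33 CPM of Prtn3.

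Against the progenitors, 8430 genes had at least 30 UMIs in both sets together, of which 114 (1.35%) were at least 2-fold higher and 405 (4.8%) at least 2-fold lower in the Mpo and Prtn3 cells. Against all other yolk sac cells, 11660 genes were compared, of which 640 (5.49%) were at least 2-fold higher and 2193 (18.8%) at least 2-fold lower. The median log2 ratio over all compared genes was -0.02 against the progenitors and 0.04 against the other cells.

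Among the genes of primary granules, the ones made first, only part of the set was on. Of 12 listed, 7 could be compared with the progenitors, of which Mpo and Prtn3 were higher by the rule. Of the other 5, Srgn and Cst7, a cystatin gene, were at least 2-fold higher and none was 2-fold lower, with a median log2 ratio of 0.87. Srgn, the serglycin gene, ran from 0 through a median of 143 CPM to 891 CPM per Mpo and Prtn3 cell, and from 0 through 80.1 CPM to 349 CPM per progenitor. The ranges overlapped throughout, and the summed level was 189 CPM in the Mpo and Prtn3 cells and 89.4 CPM in the progenitors, a ratio of 2.11 (1.84 to 2.43). The C1q cells held 47.5 CPM of Srgn.

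Serpinb1a, an inhibitor of these granule proteases, stood at 70.2 CPM in the Mpo and Prtn3 cells and 38.5 CPM in the progenitors, 1.82-fold higher (1.46 to 2.27). Ctsc, the cathepsin that activates the proteases, was 1.46-fold higher (1.24 to 1.70). Lyz2, lysozyme, went the other way: 63.8 CPM in the Mpo and Prtn3 cells, 80.1 CPM in the progenitors and 424 CPM in the C1q cells. Lyz2 was not read without the 12 progenitors that are also C1q cells.

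Elane was nearly silent beside its neighbour Prtn3. It gave 12 UMIs in 8 of the 60 cells, 5.11 CPM (2.64 to 8.92), with a highest cell of 304 CPM, against 2 UMIs and 0.45 CPM in the progenitors. The ratio of 11.3 has an interval of 2.53 to 104, since the progenitor level rests on 2 UMIs. With every cell thinned to 6500 UMIs no Elane UMI was left in the progenitors, which were put at the floor of 3 UMIs. The log2 ratio of 0.18, in place of 3.504, is therefore a lower bound and cannot show whether the difference stayed 2-fold. After thinning, 1.67% of the Mpo and Prtn3 cells showed Elane, against 13.3% at full depth. Ctsg had no UMI in any barcode of either library, and a floor of 3 UMIs allows up to 1.28 CPM of it in the Mpo and Prtn3 cells. Ms4a3, a membrane gene of granulocyte and monocyte precursors, gave 11 UMIs in 9 of the 60 cells. Elane and Ms4a3 were seen together in 3 cells.

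Genes of the later granules were almost absent. Of 12 listed, 10 had no UMI in the Mpo and Prtn3 cells: Camp, Ngp, Lcn2, Cd177, Mmp8, Mmp9, Fcnb, Chil3, S100a8 and S100a9. Ltf, lactoferrin, gave 1 UMI, and Ltb4r1, a leukotriene receptor, gave 8. Cebpe, the factor that drives later granule genes, gave 5 UMIs in 5 cells, all within ranks 1 to 20, and none was seen in ranks 21 to 120.

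**Figure D2:**
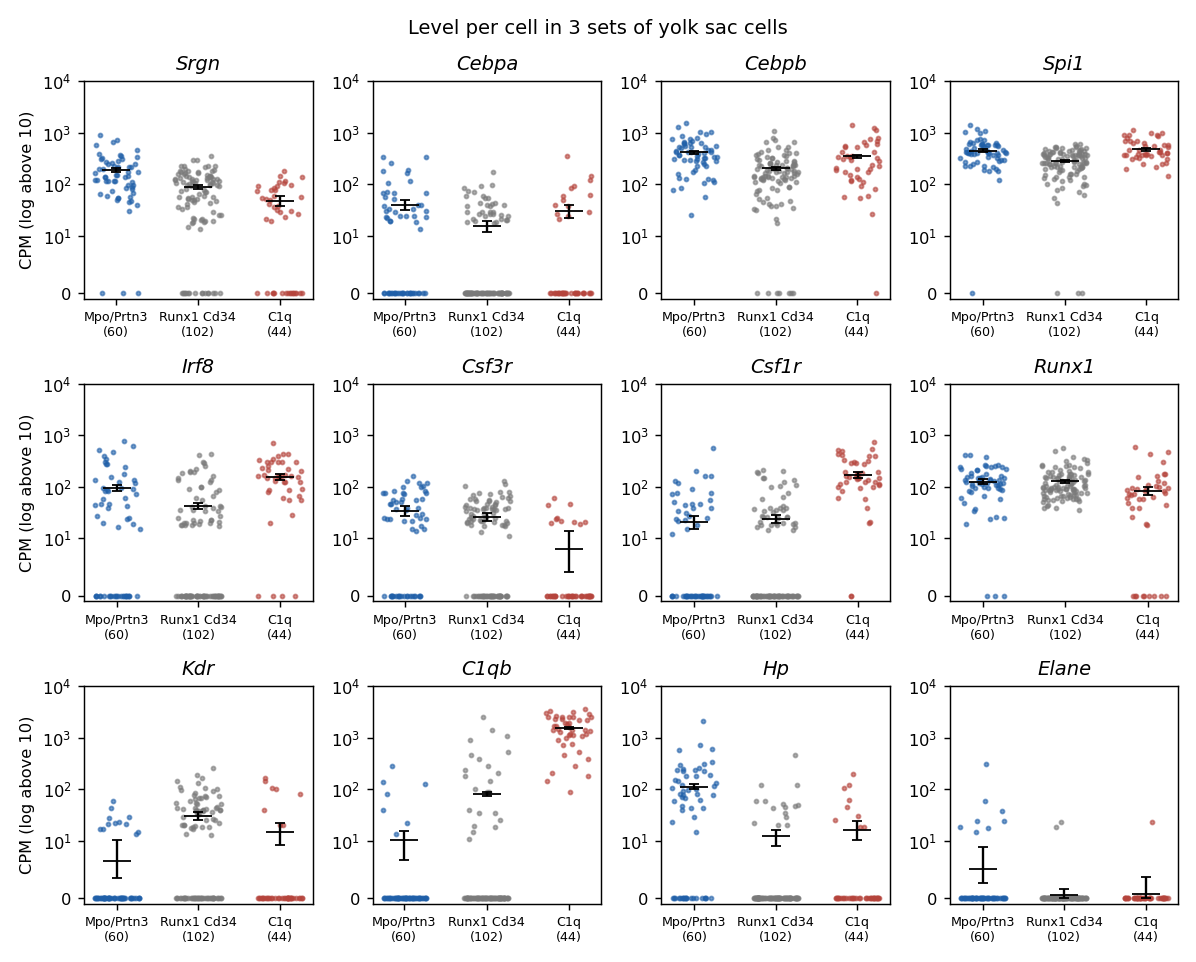
Level per cell (CPM, log above 10) of 12 genes in the 60 Mpo and Prtn3 cells (left), the 102 Runx1 and Cd34 progenitors (middle) and the 44 C1q cells (right); points are cells and the black mark is the summed level with its 95% Poisson interval. Cebpa, Cebpb and Srgn have the higher mark in the Mpo and Prtn3 cells than in the progenitors, Runx1 does not differ between these 2 sets beyond its intervals, Kdr is lower, and C1qb is concentrated in the C1q cells.

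Myeloid transcription factors were the next group. Of 12 listed, 11 are in the table and 8 could be compared with the progenitors: Cebpa, Cebpb and Irf8 were at least 2-fold higher and none was 2-fold lower, with a median log2 ratio of 0.64. Cebpa, which commits progenitors to the granulocyte and monocyte lines, stood at 39.6 CPM (31.9 to 48.5) in the Mpo and Prtn3 cells, 15.5 CPM in the progenitors and 30.1 CPM in the C1q cells. It was seen in 32 of the 60 cells, and thinned to equal depth in 21.7% of them, against 11.8% of the progenitors and 3.22% of the other yolk sac cells. Cebpb, the C/EBP member linked to emergency granulocyte output, was seen in all 60 cells, from 25.5 CPM through a median of 373 CPM to 1518 CPM. Its summed level was 419 CPM in the Mpo and Prtn3 cells and 202 CPM in the progenitors, 2.08-fold higher (1.90 to 2.28), with overlapping cells.

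Spi1, which encodes PU.1, was already high in the progenitors. It stood at 448 CPM in the Mpo and Prtn3 cells, 282 CPM in the progenitors and 475 CPM in the C1q cells, and was 1.59-fold higher (1.46 to 1.73) than in the progenitors. Irf8, a factor of the monocyte line, was 2.23-fold higher (1.83 to 2.72), at 94.9 CPM against 42.5 CPM in the progenitors, but lower than the 155 CPM of the C1q cells. Of 10 monocyte markers, 5 were compared with the progenitors, with a median log2 ratio of -0.18. Irf8 was the 1 at least 2-fold higher, while Fn1 and Ms4a6c were at least 2-fold lower. Ctss, not compared, had no UMI in the Mpo and Prtn3 cells and 26 in the progenitors. Fn1, Ms4a6c and Ctss were not read without the 12 progenitors that are also C1q cells. The median per cell of all 10 markers was 88.3 CPM in the Mpo and Prtn3 cells and 78.0 CPM in the progenitors. Irf8 and Cebpa were seen together in 23 of the 60 cells, Irf8 alone in 14 and Cebpa alone in 9. Gfi1, a repressor of the granulocyte line, gave 4 UMIs in 3 cells. Klf4, a monocyte factor, gave 5 UMIs in 3 cells.

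Progenitor genes were present. The progenitors were taken by their Runx1 and Cd34 UMIs, so the levels of both genes in them are partly set by that rule. Runx1 stood at 126 CPM in both the Mpo and Prtn3 cells and the progenitors, a ratio of 0.996 (0.862 to 1.149). Kit, the stem cell factor receptor, had a ratio of 1.00 (0.679 to 1.46) and Myb one of 0.838 (0.633 to 1.1). Cd34 stood at 221 CPM against 289 CPM, and Gata2 at 30.6 CPM against 51.5 CPM. When cells were ranked by Mpo alone the direction of Gata2 turned, with a log2 ratio of 0.37 in place of -0.75, and that of Myb too, with 0.70 in place of -0.26. Of 14 progenitor markers, 13 were compared, none was 2-fold higher, and Cd93, Hlf and Hoxa9 were at least 2-fold lower. Hoxa9 gave 1 UMI in the Mpo and Prtn3 cells (0.426 CPM) and 54 UMIs in the progenitors (12.2 CPM).

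Receptors for myeloid growth factors differed less. Of 10 listed, 8 were compared and 1, Il6ra (an interleukin-6 receptor chain), was at least 2-fold higher, at 15.3 CPM in the Mpo and Prtn3 cells and 7.43 CPM in the progenitors. Csf3r, the G-CSF receptor, stood at 33.6 CPM against 26.1 CPM in the progenitors, a ratio of 1.29 whose interval (0.955 to 1.73) includes 1, and at 8.03 CPM in the C1q cells. Csf1r, the macrophage CSF receptor, was at 20.9 CPM in the Mpo and Prtn3 cells and 23.6 CPM in the progenitors, against 167 CPM in the C1q cells. Without cells of at least 10 C1q UMIs or at least 1% globin, Csf1r was at 20.8 CPM and 16.2 CPM in the first 2 sets. Both receptors were seen together in 17 of the 60 cells, Csf3r alone in 22 and Csf1r alone in 10.

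Of 11 chemokine and homing genes, Cxcr2 alone was 2-fold apart among the 7 compared with the progenitors. This receptor for neutrophil chemokines stood at 19.2 CPM in the Mpo and Prtn3 cells and 3.83 CPM in the progenitors, 5.00-fold higher (2.81 to 9.33). It was seen in 22 of the 60 cells. Cxcr4, which holds granulocyte precursors in bone marrow, had no UMI in the Mpo and Prtn3 cells or in the progenitors. All other yolk sac cells together held 8 UMIs of it, so it was not compared.

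Of the 6 genes of the phagocyte oxidase, which makes superoxide, Ncf1 was the one at least 2-fold higher than in the progenitors, at 63.8 CPM against 28.6 CPM. The membrane subunit Cyba was 1.57-fold higher (1.43 to 1.73). Its partner Cybb gave 10 UMIs in 3 of the 60 cells, at 4.26 CPM against 8.10 CPM in the progenitors and 25.4 CPM in the C1q cells.

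General leukocyte genes were shared with the progenitors and the C1q cells. Of 18 listed, 15 were compared with the progenitors and none was 2-fold apart, while 14 of 16 compared were at least 2-fold higher than in all other yolk sac cells. Their summed level was 2544 CPM in the Mpo and Prtn3 cells, 1990.1 CPM in the progenitors and 4678 CPM in the C1q cells. Fcer1g, a shared chain of Fc receptors, was seen in all 60 cells at 576 CPM, against 482 CPM in the progenitors and 197 CPM in the other cells. Proliferation genes showed no difference of that size: none of 14 S phase genes and none of 14 mitosis genes was 2-fold apart in either comparison. Mki67, a proliferation antigen, was seen in 50 of the 60 cells, at 63.0 CPM against 59.7 CPM in the progenitors.

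Endothelial genes were lower. Of 12 markers, 10 were compared with the progenitors, and 7 were at least 2-fold lower and none higher: Cdh5, Kdr, Tek, Tie1, Esam, Lyve1 and Ramp2. Kdr, the VEGF receptor, stood at 6.38 CPM in the Mpo and Prtn3 cells and 29.9 CPM in the progenitors, a ratio of 0.213 (0.116 to 0.365). Cdh5, VE-cadherin, stood at 2.13 CPM against 18.2 CPM, and Esam, another junction protein, at 1.28 CPM against 45.5 CPM. Emcn and Stab2 had no UMI in the Mpo and Prtn3 cells. Egfl7, a secreted endothelial factor, was kept, at 155 CPM against 201 CPM in the progenitors. Over all 12 markers the summed level was 226 CPM in the Mpo and Prtn3 cells and 490.5 CPM in the progenitors. The median per cell was 220 CPM in the Mpo and Prtn3 cells (0 to 723 CPM) and 356 CPM in the progenitors (30.1 to 7324 CPM).

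**Figure D3:**
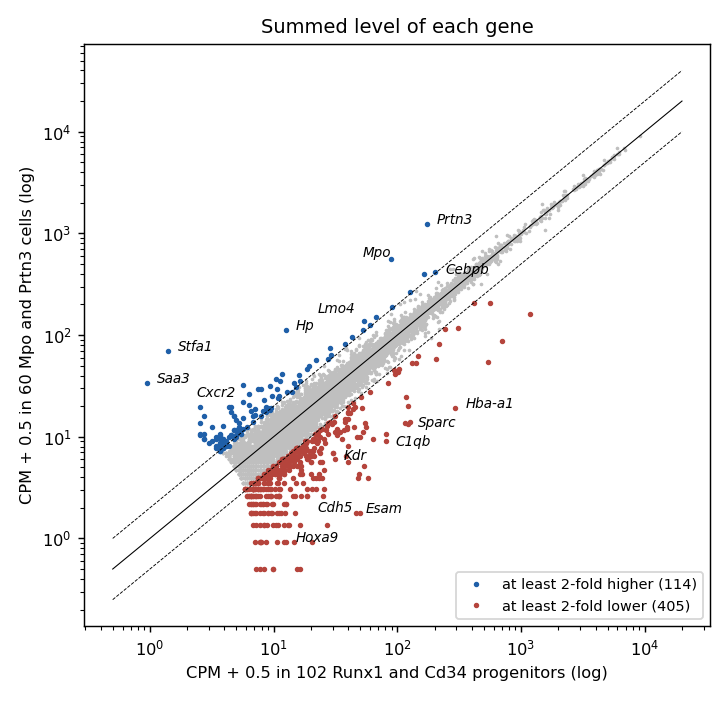
Summed level of 8430 genes (CPM + 0.5, log axes) in the 60 Mpo and Prtn3 cells against the 102 Runx1 and Cd34 progenitors; dashed lines mark 2-fold, and coloured points lie at least 2-fold apart (114 higher, 405 lower). Hp, Prtn3 and Mpo stand furthest above the line among genes over 100 CPM, with Stfa1 and Saa3 further above it at lower levels, and endothelial, macrophage and globin genes below it.

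Macrophage, erythroid and other markers give the purity of the 60 cells. Of 12 macrophage markers, 9 were compared with the progenitors: C1qa, C1qb, C1qc, Mrc1, Cx3cr1 and Maf were at least 2-fold lower, and Timd4 was at 0. Their summed level was 89.4 CPM in the Mpo and Prtn3 cells and 295 CPM in the progenitors. The medians per cell did not follow the sums. They were 53.2 CPM in the Mpo and Prtn3 cells (0 to 979 CPM) and 52.1 CPM in the progenitors (0 to 7471 CPM). C1qb stood at 10.21 CPM in the Mpo and Prtn3 cells, 80.4 CPM in the progenitors and 1539 CPM in the C1q cells. Without the 1 Mpo and Prtn3 cell and the progenitors that had at least 10 C1q UMIs or at least 1% globin, C1qb was at 5.20 CPM in the Mpo and Prtn3 cells and 6.26 CPM in the progenitors. Hbb-y likewise was at 161 CPM in the Mpo and Prtn3 cells and 1174 CPM in the progenitors, but at 160 CPM and 173 CPM without those cells. A single progenitor had over 1% globin, with 10.1%, and no Mpo and Prtn3 cell did. The globin genes Hba-a1, Hba-x, Hba-a2, Hbb-bh1 and Hbb-y, which are 5 of the 10 abundant genes furthest below the progenitors, had log2 ratios of -0.05, 0.018, 0.27, 0.017 and -0.11 without those cells. Hba-a1 and Hba-a2 are near-identical copies whose reads may be shared.

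The other 5 of those 10 were lower with and without the globin-rich and C1q cells, a removal that used no mesenchymal marker. The part of progenitors with mesenchymal genes in these 5 differences was not tested. Sparc, a matrix protein, stood at 12.8 CPM in the Mpo and Prtn3 cells and 122 CPM in the progenitors. The imprinted RNA H19 stood at 13.2 CPM against 115 CPM, and Marcks, a membrane substrate of protein kinase C, at 24.3 CPM against 117 CPM. The interferon-induced membrane genes Ifitm3 and Ifitm1 stood at 19.6 CPM and 57.03 CPM in the Mpo and Prtn3 cells, against 121 CPM and 204 CPM in the progenitors. All 7 compared mesenchymal markers were at least 2-fold lower too, at 24.3 CPM in sum against 208 CPM. The medians did not follow the sums: the median per cell was 18.2 CPM in the Mpo and Prtn3 cells and 17.6 CPM in the progenitors, whose highest cell reached 15174 CPM. All 11 lymphoid markers but 3 (Cd79b, Ighm and Il2rg) were at 0.

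The genes furthest above the progenitors among abundant ones were led by Hp. It encodes haptoglobin, a hemoglobin-binding protein stored in granules, and stood at 112 CPM (98.8 to 126) in the Mpo and Prtn3 cells, 12.2 CPM in the progenitors and 3.25 CPM in all other yolk sac cells. It ran from 0 through a median of 68.7 CPM to 2098 CPM and was seen in 40 of the 60 cells. After thinning it was seen in 35.0% of the Mpo and Prtn3 cells and 1.12% of the other cells, whose median depths are 41973 and 28023 UMIs. The ratio to the progenitors was 9.21 (6.85 to 12.6), beside 7.19 (6.63 to 7.79) for Prtn3 and 6.41 (5.72 to 7.20) for Mpo, with overlapping intervals. It was below 2-fold when cells were ranked by Mpo alone, with a log2 ratio of 0.93 in place of 3.20.

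Others of that rank were Tspo (a mitochondrial cholesterol-binding protein), at 395 CPM in the Mpo and Prtn3 cells and 164 CPM in the progenitors, and Cox4i2 (a subunit of cytochrome oxidase), at 149 CPM against 67.1 CPM. The LIM-only protein gene Lmo4 was at 137 CPM against 53.3 CPM, and the metallothionein gene Mt1 at 265 CPM against 126 CPM. Mt1 was far lower than in all other yolk sac cells, which held 1775 CPM. The chemokine gene Ccl3 stood at 112 CPM against 52.4 CPM in the progenitors, with 220 CPM in the C1q cells. The G-protein regulators Rgs2 and Rgs18, the kinase Pim1, Tuba4a and Plac8 were between 1.83-fold and 2.09-fold higher.

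A pair of genes outside the naming rule, chosen after their values were seen, were confined to few cells. Stfa1, a cysteine protease inhibitor of the stefin A family, gave 163 UMIs in 14 of the 60 cells, and 82.8% of them came from 5 cells. Its level was 69.4 CPM in the Mpo and Prtn3 cells, 0.90 CPM in the progenitors and 38.2 CPM in the C1q cells, and its close paralogs may share its reads. Saa3, an acute phase protein, gave 79 UMIs in 9 cells, with 92.4% in 5 of them. It was at 4.13 CPM in ranks 1 to 20 and at 52.6 CPM in ranks 41 to 60, so it did not follow Mpo and Prtn3.

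Levels along the rank were read in 3 bands of 20 cells and in ranks 61 to 120, of similar median depth (41474, 41769, 43319 and 43320.5 UMIs). Srgn stood at 278 CPM (241 to 319) in ranks 1 to 20, 177 CPM in ranks 21 to 40, 119.3 CPM in ranks 41 to 60 and 107 CPM in ranks 61 to 120. Cebpa stood at 57.8, 33.2, 29.5 and 18.3 CPM in the same order, with overlapping intervals between neighbours among the first 3 bands. Cebpb was flat within the 60 cells, at 429, 414 and 415 CPM, and 243 CPM (224 to 263) in ranks 61 to 120. Hp was at 166 CPM and 140.0 CPM in the first 2 bands, and at 30.8 and 22.6 CPM in the others.

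Calr, the endoplasmic reticulum chaperone calreticulin, which folds myeloperoxidase, had the highest Spearman correlation with rank level across the 60 cells besides the ranking genes (0.48, and 0.37 at equal depth). It stood at 1289 CPM in ranks 1 to 20 and between 680.0 and 839 CPM in the later bands. Of 4720 genes seen in at least 30 of the 60 cells, none besides Mpo and Prtn3 reached 0.5. The one gene at or below -0.5 (-0.50) no longer reached it at equal depth. These cells share 1 library and differ in depth, so the coefficients are descriptions.

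Kdr, Gata2 and Marcks were lower at the top of the rank. Kdr stood at 2.75, 5.93, 10.3 and 19.8 CPM from the first to the last band, with overlapping intervals between neighbours. Gata2 stood at 22.0, 29.7, 39.8 and 56.4 CPM, and Marcks at 13.8, 18.98, 39.8 and 85.4 CPM. C1qb was at 4.13, 0, 26.9 and 59.1 CPM.

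**Figure D4:**
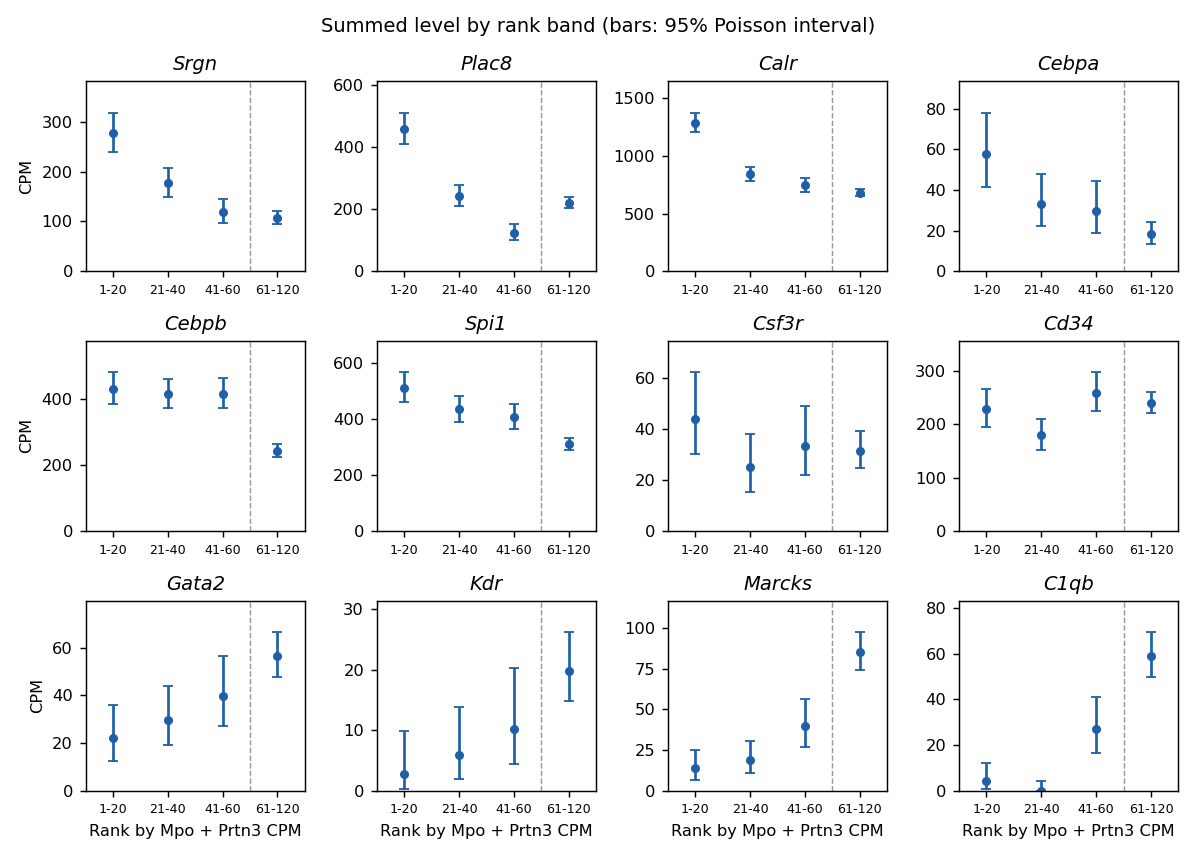
Summed level (CPM) of 12 genes in ranks 1 to 20, 21 to 40 and 41 to 60 of the Mpo and Prtn3 cells and, right of the dashed line, in ranks 61 to 120; bars are 95% Poisson intervals. Srgn, Plac8 and Calr are highest in the first band, Cebpb is level within the 60 cells, and Gata2, Kdr and Marcks are higher in each later band, with overlapping intervals between most neighbouring bands.

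The 60 cells differed in which ranking gene led. In 48 of them Prtn3 had more UMIs than Mpo (Prtn3-led), in 11 Mpo had more (Mpo-led), and in 1 they were equal. This split was made after the values were seen. The Mpo-led cells were shallower, with a median of 23078 UMIs against 43210.5 in the Prtn3-led cells. Their median mitochondrial share was higher, at 3.15% against 1.73%. Mpo stood at 1613 CPM and Prtn3 514 CPM in the Mpo-led cells, against 404 CPM of Mpo and 1368 CPM of Prtn3 in the Prtn3-led cells. Of 5755 genes compared, 196 (3.41%) were at least 2-fold higher and 358 (6.22%) at least 2-fold lower in the Mpo-led cells.

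A few genes known from mast cells, basophils and the erythroid line were higher in the Mpo-led cells, picked here after their values were seen. Gata1, a factor of these lines, gave 27 UMIs in 6 of the 11 Mpo-led cells (90.1 CPM, 59.4 to 131) and 2 UMIs in 2 of the 48 Prtn3-led cells (1.00 CPM). Hdc, which makes histamine, stood at 100.2 CPM in the Mpo-led cells and 7.51 CPM in the Prtn3-led cells, and Cpa3, a mast cell carboxypeptidase, at 43.4 CPM against 2.504 CPM. Hdc was at 38.7 CPM without the highest Mpo-led cell. With each cell thinned to 6500 UMIs the log2 ratio was 2.13 for Hdc. No UMI of Gata1 or Cpa3 was then left in the Prtn3-led cells, which were put at the floor of 3 UMIs. The log2 ratios of 3.13 for Gata1 and 0.54 for Cpa3 are therefore lower bounds, and that of Cpa3 cannot place it above or below 2-fold. At least 1 of these 3 genes was seen in 7 of the 11 Mpo-led cells and in 6 of the 48 Prtn3-led cells. Csf2rb, the common receptor chain for interleukin-3, interleukin-5 and GM-CSF, stood at 83.5 CPM against 5.51 CPM. Il3ra, the interleukin-3 chain, gave 1 UMI against 21 UMIs, or 3.34 CPM against 10.52 CPM. Its ratio of 0.317 has an interval (0.00768 to 1.974) that includes 1, so no difference is shown. Other genes of these lines followed in part. The erythroid gene Klf1 gave 9 UMIs in 2 of the 11 Mpo-led cells and 2 UMIs in 2 of the 48 Prtn3-led cells. Its level was 30.05 CPM against 1.00 CPM. Gata2, counted above with the progenitor genes, stood at 86.81 CPM in the Mpo-led cells against 21.04 CPM in the Prtn3-led cells. Epor and globin did not follow. The erythropoietin receptor gene Epor had no UMI in either set, and embryonic globin Hbb-y was at 167 CPM in the Mpo-led cells and 158 CPM in the Prtn3-led cells. No UMI was seen in any of the 60 cells for the mast cell and basophil proteases Mcpt8, Mcpt4, Cma1, Tpsb2, Tpsab1, Gzmb and Prss34, or for the eosinophil genes Epx, Prg2, Prg3, Ear1, Ear2, Ccr3 and Il5ra.

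The largest difference among genes over 100 CPM was that of Lgals1, the sugar-binding galectin-1. It ran from 0 through a median of 203 CPM to 5320 CPM in the Mpo-led cells and from 0 through 52.0 CPM to 317 CPM in the Prtn3-led cells, and 5 of the 11 Mpo-led cells lay above every Prtn3-led cell. Its summed level was 1439 CPM against 77.1 CPM, and 821 CPM without the highest Mpo-led cell, which gave 50.8% of the UMIs. Lmo4 stood at 668 CPM against 60.1 CPM, and 437 CPM without its highest cell, so its height over the progenitors lay in these few cells. The 3 Mpo-led cells highest in Lgals1 had 5320, 2617 and 1069 CPM of it, were also the 3 highest in Lmo4 (2114, 1545 and 573 CPM), and each held Gata1, Hdc and Csf2rb. Elane gave 6 UMIs in 4 of the 11 Mpo-led cells and 6 UMIs in 4 of the 48 Prtn3-led cells.

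Ncf1, Spi1 and Cebpb were higher in the Prtn3-led cells, but not every phagocyte gene was. The oxidase subunit Cyba stood at 474 CPM in the Mpo-led cells and 317 CPM in the Prtn3-led cells, a ratio of 1.495 (1.24 to 1.80), and Fcer1g at 497 CPM against 590.5 CPM. Ncf1 gave 148 UMIs in 43 of the 48 Prtn3-led cells (74.1 CPM) and 1 UMI in the Mpo-led cells (3.34 CPM), and its log2 ratio was -2.68 when thinned. Irf8 was seen in 2 of the 11 Mpo-led cells and in 34 of the 48 Prtn3-led cells. Its summed level was 56.8 CPM against 103 CPM, less than 2-fold apart, and 1 Mpo-led cell held 88.2% of the Mpo-led UMIs. When thinned its log2 ratio was 0.01, and without that cell -3.84. Spi1 was at 260.4 CPM in the Mpo-led cells and 476 CPM in the Prtn3-led cells. Cebpb stood at 184 CPM in the Mpo-led cells against 456 CPM in the Prtn3-led cells, and Lmo2, a partner of the progenitor factor Tal1, at 130.2 CPM against 408 CPM. With each cell thinned to 6500 UMIs, which gives all cells equal weight, the log2 ratio of Cebpb was -0.63 in place of -1.31 and that of Lmo2 -0.41 in place of -1.65, so those 2 differences lay below 2-fold. Immediate early and stress genes (Nfkbia, Junb, Ier5 and Hspb1) were also among the 12 lowest in the Mpo-led cells. So was Xist, at 33.4 CPM against 181 CPM: 2 of the 11 Mpo-led cells and 28 of the 48 Prtn3-led cells had Xist and no UMI of 4 Y-linked genes. The part of depth, mitochondrial share and embryo in these differences was not tested.

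The same split was made in ranks 61 to 120, where depth was alike. There 18 cells were Mpo-led (median 43363 UMIs) and 42 Prtn3-led (median 43320.5 UMIs). Their median mitochondrial shares were 1.93% and 1.73%. Gata1 stood at 33.2 CPM in the Mpo-led and 3.34 CPM in the Prtn3-led cells of these ranks, Hdc at 44.2 CPM against 3.34 CPM, Cpa3 at 17.97 CPM against 1.67 CPM and Lgals1 at 811 CPM against 103 CPM. Ncf1 stood at 13.8 CPM in the Mpo-led cells against 45.1 CPM in the Prtn3-led cells, Irf8 at 4.15 CPM against 68.5 CPM and Cebpb at 135 CPM against 286 CPM. Klf1 stood at 41.5 CPM in the Mpo-led cells against 0.557 CPM in the Prtn3-led cells, and Epor gave 6 UMIs against none. Hp had no UMI in these 18 Mpo-led cells and stood at 31.7 CPM in the 42 Prtn3-led cells. The immediate early genes did not recur, with Junb at 133 CPM in the Mpo-led and 140.4 CPM in the Prtn3-led cells.

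**Figure D5:**
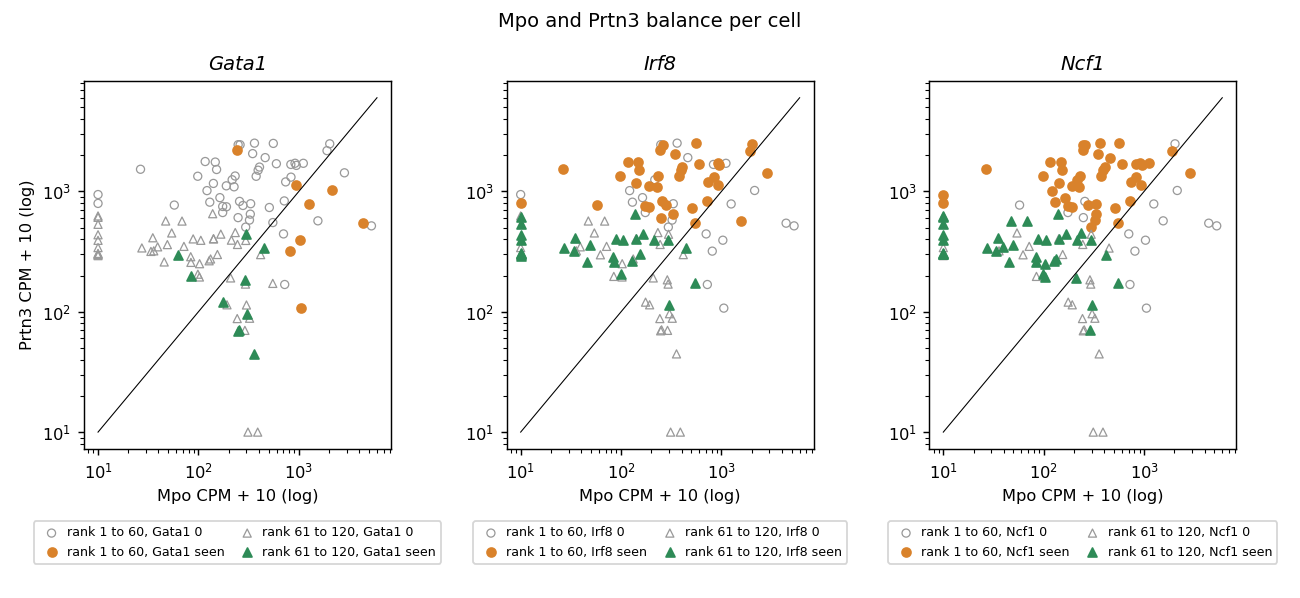
Prtn3 level against Mpo level per cell (CPM + 10, log axes) in ranks 1 to 60 (circles) and 61 to 120 (triangles), filled where Gata1 (left), Irf8 (middle) or Ncf1 (right) had a UMI; the line marks equal levels. Gata1 was seen in 6 of 11 Mpo-led and 2 of 48 Prtn3-led cells of ranks 1 to 60, while Irf8 was seen in 2 and 34 and Ncf1 in 1 and 43 of them.

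A rank by Mpo alone would keep 41 of the 60 cells and a rank by Prtn3 alone 54. The 19 cells that Mpo alone would bring in held 32.5 CPM of Gata1, 48.1 CPM of Hdc, 7.07 CPM of Irf8 and no Hp. Several ratios to the progenitors depended on the ranking gene. Under Mpo alone the log2 ratio was 0.11 for Ncf1, 0.23 for Irf8, 0.33 for Cebpb and 0.88 for Cebpa, each below 2-fold, against 1.16, 1.16, 1.06 and 1.35 for the summed rank. Under Prtn3 alone it was 0.32 for Lmo4 and 0.84 for Srgn, against 1.36 and 1.08. Over all 60 cells, 30 had Xist with no UMI of the 4 Y-linked genes and 22 had a Y-linked UMI without Xist, so embryos of both sexes were among their sources.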

How the data were processed

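Droplet single-cell RNA-seq was analysed in 1 yolk sac and 1 embryoid body library. The authors deposited a matrix of unnormalised UMI counts for each library, with genes against droplet barcodes, and the submitters' processing notes name the build mm10. The aligner is not given in the sources used here, nor is the counting program. Of 33456 gene identifiers 32655 are in GENCODE M21, the source of coordinates, and 242 of 243 listed genes were found, 3 by an older symbol. The yolk sac library holds 30294678 UMIs and the embryoid body library 73915225.

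Cells had at least 6537 UMIs (10% of the 99th percentile over the 3000 deepest barcodes) and at most 10% mitochondrial UMIs, which left 775 of 801 barcodes. Counts were summed over the cells of a set and divided by the set's UMIs to give CPM. With 1 library per source there is no replicate: no test was run, intervals are 95% exact Poisson (levels) or conditional binomial (ratios) and cover counting error only. A gene counted as apart at a ratio of at least 2 with at least 30 UMIs in the compared sets, and a set at 0 UMIs was put at a floor of 3. Named genes were the ranking genes, the listed granule, factor and receptor genes, and the 15 furthest above and 10 furthest below at 100 CPM or more, with up to the 4 highest and 2 lowest of every other list and markers at 0. Lgals1, Stfa1, Saa3 and the genes of the split by leading gene were chosen after their values were seen. Values of some list members are not reported here. Members and lists were chosen with earlier results of these data known. Scrublet in scanpy 1.11.5 marked 2 cells as doublets, none of the 60, and no cell was removed as a doublet. Thinning drew 6500 UMIs per cell. Python 3.11.15, numpy 2.4.6 and scipy 1.17.1 were used, and the scripts were tested on simulated data.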

Additional observations from a re-analysis of the deposited data

Results flagged for a closer look

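Signal of Mpo and Prtn3 was also found outside the cells described. Of 516 yolk sac barcodes with 1000 to 6536 UMIs, below the limit for a cell, 18 reached the summed Mpo and Prtn3 level of rank 60. They had a median of 1543 UMIs, of which 33.9% were mitochondrial, and 1 to 16 UMIs of the 2 genes each. Of the 18, 2 had at most 10% mitochondrial UMIs.

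In the embryoid body library, 37 UMIs of Mpo and Prtn3 were counted over all barcodes. Of these, 27 lay in 26 of 1878 cells, 0.533 CPM over those cells, and the highest cell reached 132 CPM, below the level of rank 120 in the yolk sac.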

How the results depend on the processing

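No paired analysis was possible because each source has 1 library. The number of genes apart moves with depth and with the UMI minimum. Against the progenitors, the 114 genes higher became 178 with the mean of per-cell CPM, 68 with cells thinned to 6500 UMIs, 264 with a gene minimum of 10 UMIs and 34 with a minimum of 100. The 405 lower became 116, 918 and 110 under thinning and these minimums, and 627 with progenitors of at least 1 Runx1 and 1 Cd34 UMI. Against all other yolk sac cells, the 640 higher became 1206 and 398 with minimums of 10 and 100, and the 2193 lower became 1405 when thinned. Between Mpo-led and Prtn3-led members, alternatives chosen after seeing the data gave 102 and 42 genes higher and 95 and 74 lower, thinned and with a minimum of 100, in place of 196 and 358. The count of genes correlated with rank level at or beyond 0.5 in size was 0 in place of 1 when thinned. Thinned shares of the 60 cells were 21.7% for Cebpa, 20% for Csf3r, 33.3% for Irf8 and 1.67% for Elane, in place of 53.3%, 65.0%, 61.7% and 13.3%.

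Over 41 gene ratios to the progenitors and 697 alternative values, 568 stayed within the counting interval, 125 moved outside it and 4 turned the sign of a ratio that was at least 2-fold. Those 4 were of globin genes: without globin-rich and C1q cells the log2 ratio was 0.018 for Hba-x, 0.27 for Hba-a2 and 0.017 for Hbb-bh1, and without the cells marked by Scrublet it was 0.19 for Hba-a2. Among ratios below 2-fold the sign turned in 24 values of 6 genes (Csf1r, Gata2, Kit, Lmo2, Myb and Runx1), 7 of them outside the interval, with 0.37 for Gata2, -0.37 for Lmo2 and 0.70 for Myb when ranked by Mpo alone. Of 29 genes at least 2-fold apart, 18 fell below 2-fold under at least 1 alternative. Ranking by Mpo alone also did so for Ccl3 (0.61), Cox4i2 (0.68) and Cdh5 (-0.78), 40 members for Cebpb (0.88), and a mitochondrial limit of 5% for Irf8 (0.81). The cause was not tested. Depth limits what can be said of Elane, Cebpe, Gfi1 and Ms4a3, each with 12 UMIs or fewer in the 60 cells.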

Other observations

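Siglecf, a sialic acid receptor of eosinophils and some macrophages, was seen in 24 of the 60 Mpo and Prtn3 cells, at 14.0 CPM (9.67 to 19.7) against 4.50 CPM in the progenitors. It was the one of 8 eosinophil markers with any UMI in them. Of the megakaryocyte markers, the integrin gene Itgb3 was seen in 49 of the 60 cells and was not 2-fold apart from the progenitors, while Pf4 was lower, at 10.21 CPM against 32.2 CPM. Hmga2, a chromatin protein of fetal progenitors, was seen in 59 of the 60 cells, at 320 CPM against 409 CPM in the progenitors and 133 CPM in all other yolk sac cells.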
